A study of Mus musculus with 8 samples.

Results

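Genes for proteins reported to work with Tet1 were followed across the series: the scaffold genes Sin3a and Sin3b, the glycosyltransferase gene Ogt, and Hdac1, Hdac2, Chd4, Mta1, Mta2, Mbd3 and Mbd2 of the NuRD complex. The genes were chosen by name, with earlier results of these data known. They were found through the platform's probe annotation, whose probe set numbers are Entrez gene IDs. Of the 10 listed genes, 9 were measured, each by 1 probe set, among 15267 named genes in all; the annotation names no probe set for Hdac1, which is not analysed here. Affymetrix arrays profiled E14Tg2a, an established line of mouse embryonic stem (ES) cells, transfected with a small interfering RNA (siRNA), with 2 arrays in each of 4 groups. These were Tet1 siRNA #1 (MSS284895) at 96 h, Tet1 siRNA #2 (MSS284897) at 96 h, Tet1 siRNA #1 at 48 h, and a control siRNA against firefly luciferase, a gene that mouse cells lack, at 96 h. All 8 arrays thus come from transfected cells of a single line, and no control at 48 h was analysed here. Whether a group's arrays stem from different cultures is not stated, so the p-values speak of the spread among arrays alone, and that spread may be technical. The level of Tet1 is not analysed here either, since no probe set is named for it, so the knockdown labels were not checked against their target.

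Tet1 oxidises methylated cytosine in DNA and is known in ES cells both as an activator and as a repressor of genes. Its repressive role is tied to Sin3a, a scaffold that carries the histone deacetylases Hdac1 and Hdac2 to promoters. Ogt attaches the sugar N-acetylglucosamine (O-GlcNAc) to serine and threonine of nuclear and cytosolic proteins, Tet proteins among them, and is essential in ES cells. NuRD joins the same deacetylases to a chromatin remodelling ATPase such as Chd4, to Mta scaffold proteins, and to either Mbd2, which binds methylated CpG, or Mbd3, which in mammals does so poorly and which ES cells need to leave the pluripotent state. Whether depletion of Tet1 goes along with a change in the transcripts of these partners is the question asked of the data here.

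The values are RMA signals on the log2 scale. All 12 ES cell markers checked lay above 8 on every array, with list means from 12.16 to 12.51. Of these 12, 4 fell and 3 rose with both siRNAs at 96 h against control. Esrrb had a log2 difference of -1.11 and Nanog one of -1.08, larger in size than any member's in that comparison, while Zfp42 (-0.49) and Sox2 (-0.21) fell and Epcam (0.60), Utf1 (0.58) and Tdgf1 (0.30) rose. The part of this shift in ES cell markers in the members' differences was not tested. The 96 h arrays, controls included, also carried lung transcripts. Scgb1a1, the secretoglobin of airway club cells, lay between 11.95 and 12.83 on the 96 h arrays and at 3.71 and 4.03 on the 48 h arrays, where the bacterial trp probe sets, taken as absent, lay between 3.18 and 3.71. The mean of 16 lung genes was 7.60 and 7.39 with siRNA 1 at 96 h, 7.79 and 7.26 with siRNA 2 at 96 h, 5.58 and 5.58 with siRNA 1 at 48 h, and 7.72 and 7.68 in the controls at 96 h. In a comparison that involves the 48 h arrays, lung transcripts therefore move with the time point, and their part in such a result was not tested. At 96 h, 3 of the 16 lung genes were lower and 0 higher with both siRNAs than in the controls. These were Napsa (-1.34), Bpifa1 (-0.88) and Hopx (-0.40). Napsa and Hopx, which count in the mean of 16, did not differ detectably between 96 h and 48 h with siRNA 1 (-0.01 and -0.11). The 10 fibroblast markers had list means from 4.90 to 5.52, and the 7 blood and endothelial markers from 5.46 to 6.19. In each of these 2 lists the lowest means were those of the 48 h arrays. With siRNA 1 at 48 h against control, 4 of the 10 fibroblast markers were called lower and 1, Thy1, higher. Of the 7 blood and endothelial markers, 2 were called lower and 1, Pecam1, higher.

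Promoter sequence is shown for Sin3a, which fell with both siRNAs, and for Chd4 and Mbd3, which had the widest ranges of group means, so that their CpG content can be read. RefSeq's table of promoters (build GRCm38.p6) held 11 windows for 8 of the 9 measured members, Mbd2 not among them. Each stretch ends at the last base before the gene's outermost annotated start, runs 5′ to 3′ on the gene's strand, and has the CpG dinucleotides, the substrate of DNA methylation and of Tet1, in capitals. The stretch of Sin3a is chr9:57071790-57071990 (plus strand, 9 CpG), that of Chd4 is chr6:125095731-125095979 (plus strand, 12 CpG) and that of Mbd3 is chr10:80399532-80399781 (minus strand, 14 CpG). Windows of 250 bases at another annotated start, not printed, held more CpG, with 19 for Sin3a and 23 for Chd4.
Sin3a: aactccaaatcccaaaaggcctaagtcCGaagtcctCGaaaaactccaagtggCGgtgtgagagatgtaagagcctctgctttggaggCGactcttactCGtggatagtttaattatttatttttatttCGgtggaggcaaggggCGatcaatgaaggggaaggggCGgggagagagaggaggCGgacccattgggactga
Chd4: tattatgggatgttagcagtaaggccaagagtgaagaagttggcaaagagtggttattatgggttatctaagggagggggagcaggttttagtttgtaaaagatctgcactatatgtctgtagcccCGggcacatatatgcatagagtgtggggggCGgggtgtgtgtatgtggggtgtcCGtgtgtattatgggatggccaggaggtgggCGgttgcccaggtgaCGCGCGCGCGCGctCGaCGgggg
Mbd3: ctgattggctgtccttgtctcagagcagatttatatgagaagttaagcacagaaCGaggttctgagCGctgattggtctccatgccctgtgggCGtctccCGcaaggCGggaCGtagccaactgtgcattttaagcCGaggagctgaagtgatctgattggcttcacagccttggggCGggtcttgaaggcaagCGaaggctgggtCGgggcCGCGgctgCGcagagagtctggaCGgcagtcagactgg
Over the 250 bases before each annotated start, the members' windows held from 10 CpG in Sin3b to 39 in Mta1, with a median of 15, against a median of 13 over 15474 windows of measured genes. The ratio of observed to chance CpG had a median of 0.87 in the members' windows and of 0.63 in those of measured genes.

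Exact motifs were searched in the same windows on both strands, and none of the motifs contains another. The GC box GGGCGG, a site of Sp1-like factors that itself holds a CpG, was present in 11 of 11 member windows, against 50.3% of the windows of measured genes and 32.7% of all 32851 windows. CCAAT was present in 4 of 11 member windows, those of Chd4, Mbd3 and Sin3a, against 34.8% of the windows of measured genes. TATAAA was found for Mbd3 and Sin3b, against 8.6% of the windows of measured genes, and CCGGAAG, an ETS core, for Mta2, against 10.4%. CACGTG was found in 0 member windows, against 7.6%. The 11 windows belong to 8 genes. Those of Chd4 overlap each other, as do those of Ogt, so a single site can count in both. A match describes these letters only.

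With both Tet1 siRNAs at 96 h, the partner genes moved little, and in both directions. Sin3a fell and Mbd2 rose, while Sin3b, Ogt, Hdac2, Mbd3, Chd4, Mta1 and Mta2 did not pass the test. The 2 calls of 9 stand against 24.2% called among all 15267 genes (limma, adjusted p under 0.05), and the members' median log2 difference was 0.096, against -0.021 over all genes. All 9 members lay above the median gene mean. The fit with the genes below that mean left out called 3393 of 7634 genes. The groups did not overlap for 3 of 9 members, Sin3a, Hdac2 and Mbd2, against 44.3% of all genes. The 95% intervals of the 9 differences, each taken alone, lay between -0.53 and 0.45.

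**Figure D1:**
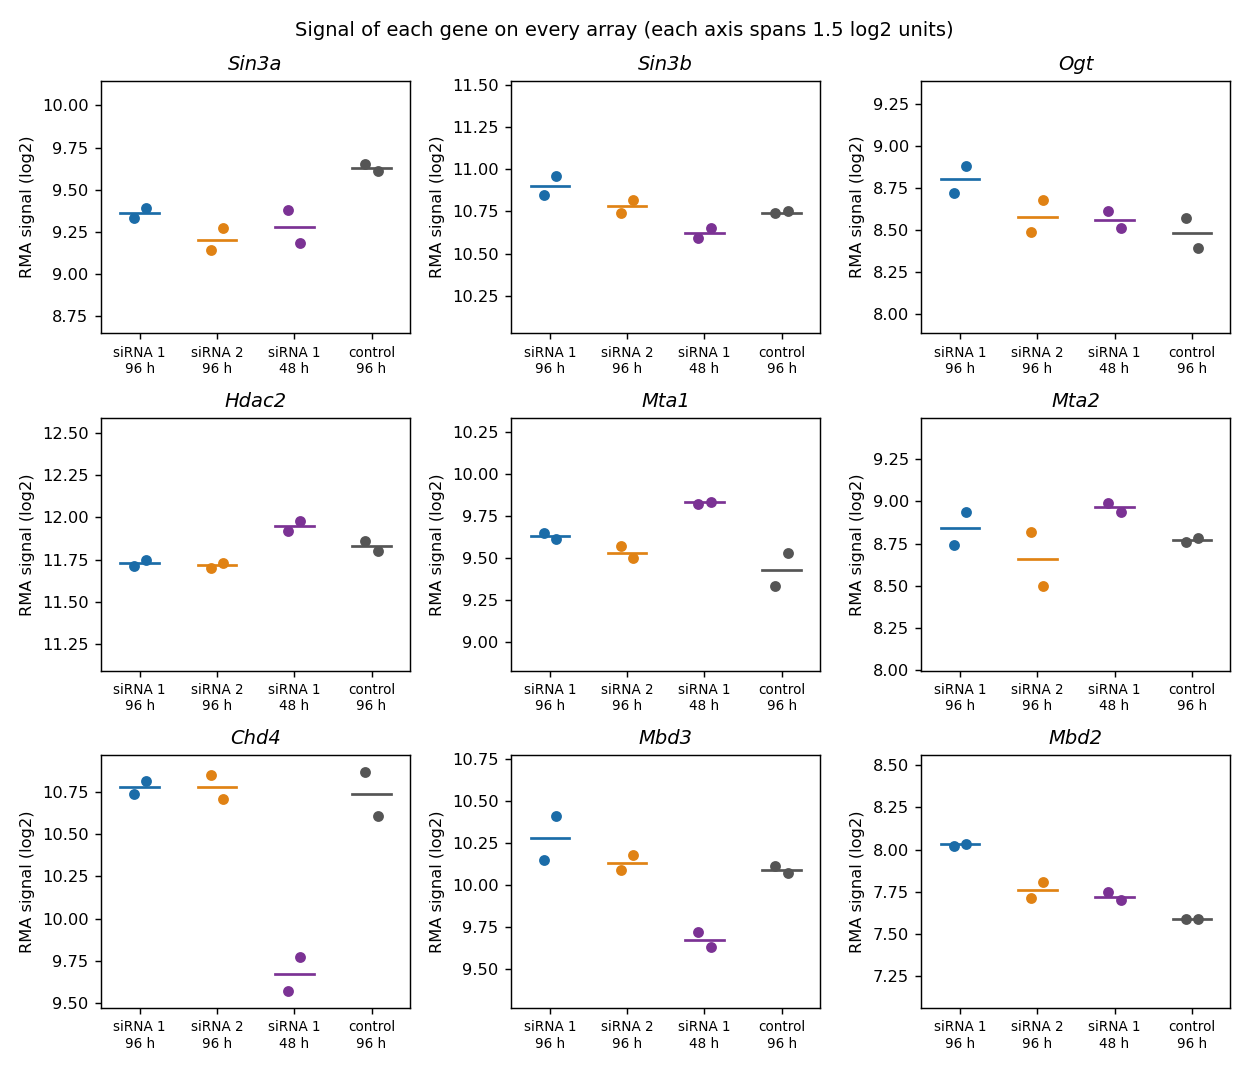
RMA signal (log2, vertical axis) of the 9 measured genes on each of the 8 arrays by group; points are arrays, bars are the means of 2 arrays, and each panel spans the same range so that steps can be compared by eye. Chd4 and Mbd3 are lowest on the 48 h arrays, Sin3a is highest and Mbd2 lowest on the control arrays, and the other genes move less.

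Sin3a, the scaffold known to be bound by Tet1, had signals of 9.33 and 9.39 with siRNA 1 at 96 h, 9.14 and 9.27 with siRNA 2 at 96 h, and 9.38 and 9.18 with siRNA 1 at 48 h, against 9.65 and 9.61 in the controls. The control arrays were the highest, and none of the 6 siRNA arrays reached them. The log2 difference between both siRNAs at 96 h and control was -0.34 ± 0.0791 (SE; 4 arrays against 2), a 1.27-fold fall (limma, adjusted p = 0.0154). In bulk RNA, fewer cells with the transcript and less transcript per cell cannot be told apart. With the lung genes as a covariate it was -0.39 (adjusted p = 0.0236). Taken singly, siRNA 2 gave a fall of 0.42 ± 0.0913 (adjusted p = 0.0185) and siRNA 1 a difference of -0.27 ± 0.0913 (adjusted p = 0.0722). The siRNA 1 value passed with quantile normalization (0.0424), an intensity trend (0.0227) or the dim genes left out (0.0216). Sin3a did not differ detectably between the siRNAs, with 0.16 ± 0.0913 for siRNA 1 minus siRNA 2 (interval -0.05 to 0.37, adjusted p = 0.597).

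The Sin3a call with both siRNAs rested on having both control arrays. With control replicate 1 left out the difference was -0.32 (adjusted p = 0.0867), and with control replicate 2 left out it was -0.36 (0.0634). The siRNA 2 call was lost without control replicate 1 (0.0777), control replicate 2 (0.0629) or siRNA 2 replicate 1 (0.0904).

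Sin3b, the second Sin3 scaffold, had signals of 10.85 and 10.96 with siRNA 1 at 96 h, 10.74 and 10.82 with siRNA 2 at 96 h, and 10.59 and 10.65 with siRNA 1 at 48 h, against 10.74 and 10.75 in the controls. Its order ran from siRNA 1 at 96 h down to siRNA 1 at 48 h, with siRNA 2 and the controls between and overlapping. The difference of both siRNAs from control was 0.10 ± 0.0662 (interval -0.06 to 0.25, adjusted p = 0.336).

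Ogt, the only O-GlcNAc transferase of nuclear and cytosolic proteins, had signals of 8.72 and 8.88 with siRNA 1 at 96 h, 8.49 and 8.68 with siRNA 2 at 96 h, and 8.61 and 8.51 with siRNA 1 at 48 h, against 8.57 and 8.39 in the controls. Only the siRNA 1 arrays of 96 h lay clear of the controls; the other groups overlapped with them. The difference was 0.22 ± 0.0902 for both siRNAs (interval 0.0076 to 0.42, adjusted p = 0.126), 0.32 ± 0.104 for siRNA 1 (adjusted p = 0.0579) and 0.11 ± 0.104 for siRNA 2 (adjusted p = 0.549). Ogt passed with both siRNAs when the dim genes were left out (0.0481), and with siRNA 1 when they were left out (0.0153) or an intensity trend was used (0.0202). With the lung covariate the difference with both siRNAs was 0.14 (adjusted p = 0.332).

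Hdac2, a deacetylase shared by the Sin3 and NuRD complexes, had signals of 11.71 and 11.75 with siRNA 1 at 96 h, 11.70 and 11.73 with siRNA 2 at 96 h, and 11.92 and 11.98 with siRNA 1 at 48 h, against 11.86 and 11.80 in the controls. The 96 h siRNA arrays were the lowest and the 48 h arrays the highest, with a range of group means of 0.23. The difference of both siRNAs from control was -0.11 ± 0.0613 (interval -0.25 to 0.03, adjusted p = 0.253).

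Mbd2 had signals of 8.02 and 8.03 with siRNA 1 at 96 h, 7.71 and 7.81 with siRNA 2 at 96 h, and 7.75 and 7.70 with siRNA 1 at 48 h, against 7.59 and 7.59 in the controls. Every siRNA array lay above both control arrays, the siRNA 1 arrays of 96 h were the highest, and the siRNA 2 and 48 h arrays overlapped. The log2 difference of both siRNAs from control was 0.31 ± 0.0628, a 1.24-fold rise (adjusted p = 0.00972). With the lung covariate it was 0.27 (adjusted p = 0.0349). The call was lost with control replicate 1 left out (0.30, adjusted p = 0.0592) or control replicate 2 left out (0.31, 0.0579).

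Mbd2 rose by 0.44 ± 0.0725 with siRNA 1 (1.36-fold, adjusted p = 0.00392), and this call held when any single array was left out, with adjusted p from 0.006 to 0.0289. The siRNA 2 value was 0.17 ± 0.0725 (adjusted p = 0.156). The difference between the siRNAs was 0.27 ± 0.0725 (interval 0.10 to 0.43) with a raw p of 0.00609 by limma, and its adjusted p of 0.259 did not pass.

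Mbd3, the alternative to Mbd2 in NuRD, had signals of 10.15 and 10.41 with siRNA 1 at 96 h and 10.09 and 10.18 with siRNA 2 at 96 h, against 10.11 and 10.07 in the controls. The siRNA 2 arrays overlapped with the controls. Its difference with both siRNAs was 0.12 ± 0.086 (interval -0.08 to 0.32, adjusted p = 0.349). Chd4, the remodelling ATPase, had 10.74 and 10.82 with siRNA 1 at 96 h and 10.85 and 10.71 with siRNA 2 at 96 h, against 10.87 and 10.61 in the controls. The siRNA arrays lay inside the range of the control arrays, and the difference was 0.04 ± 0.097 (interval -0.19 to 0.26, adjusted p = 0.817).

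Mta1 and Mta2 encode scaffolds on which the NuRD deacetylases sit. Mta1 had signals of 9.65 and 9.61 with siRNA 1 at 96 h and 9.57 and 9.50 with siRNA 2 at 96 h, against 9.33 and 9.53 in the controls, a difference of 0.15 ± 0.074 for both siRNAs (adjusted p = 0.185). Mta2 had 8.74 and 8.94 with siRNA 1 at 96 h and 8.82 and 8.50 with siRNA 2 at 96 h, against 8.76 and 8.78 in the controls, a difference of -0.02 ± 0.0988 (interval -0.25 to 0.20, adjusted p = 0.889). The siRNA 2 arrays overlapped with the controls in both genes, whereas the siRNA 1 arrays lay above the controls in Mta1 and overlapped with them in Mta2. The spread between arrays of a group was widest for Mta2 with siRNA 2, at 0.221 (SD, n = 2).

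Taken singly, siRNA 1 gave 1 call of 9, Mbd2, against 22.8% of all genes, and siRNA 2 gave 1 call, Sin3a, against 15.7%. With the dim genes left out, 3304 of 7634 genes were called with siRNA 1 and 2566 of 7634 with siRNA 2. The arrays did not overlap with the controls for 7 of 9 members with siRNA 1, against 62.6% of all genes, and for 3 of 9 with siRNA 2, against 57.4%. That different members passed with each siRNA is not a shown difference between the duplexes, since siRNA 1 minus siRNA 2 gave 0 calls of 9, against 0.0197% of all genes (limma). At an unadjusted p under 0.05 it gave 1 member, Mbd2. The arrays of the siRNAs did not overlap for 5 of 9 members, all higher with siRNA 1, against 41.1% of all genes. The comparisons with control share the 2 control arrays.

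The members not yet given for each siRNA singly did not pass. With siRNA 1 against control, Sin3b had a log2 difference of 0.16 (adjusted p = 0.179), Hdac2 -0.10 (0.363), Mbd3 0.20 (0.199), Chd4 0.04 (0.852), Mta1 0.20 (0.139) and Mta2 0.07 (0.725). With siRNA 2 against control, Sin3b had 0.03 (0.813), Hdac2 -0.11 (0.333), Mbd3 0.05 (0.798), Chd4 0.04 (0.857), Mta1 0.10 (0.473) and Mta2 -0.11 (0.556). Between siRNA 1 and siRNA 2 the differences were 0.22 for Ogt (adjusted p = 0.517), 0.12 for Sin3b (0.619), 0.01 for Hdac2 (0.965), 0.15 for Mbd3 (0.653), -0.003 for Chd4 (0.997), 0.09 for Mta1 (0.749) and 0.18 for Mta2 (0.632).

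**Figure D2:**
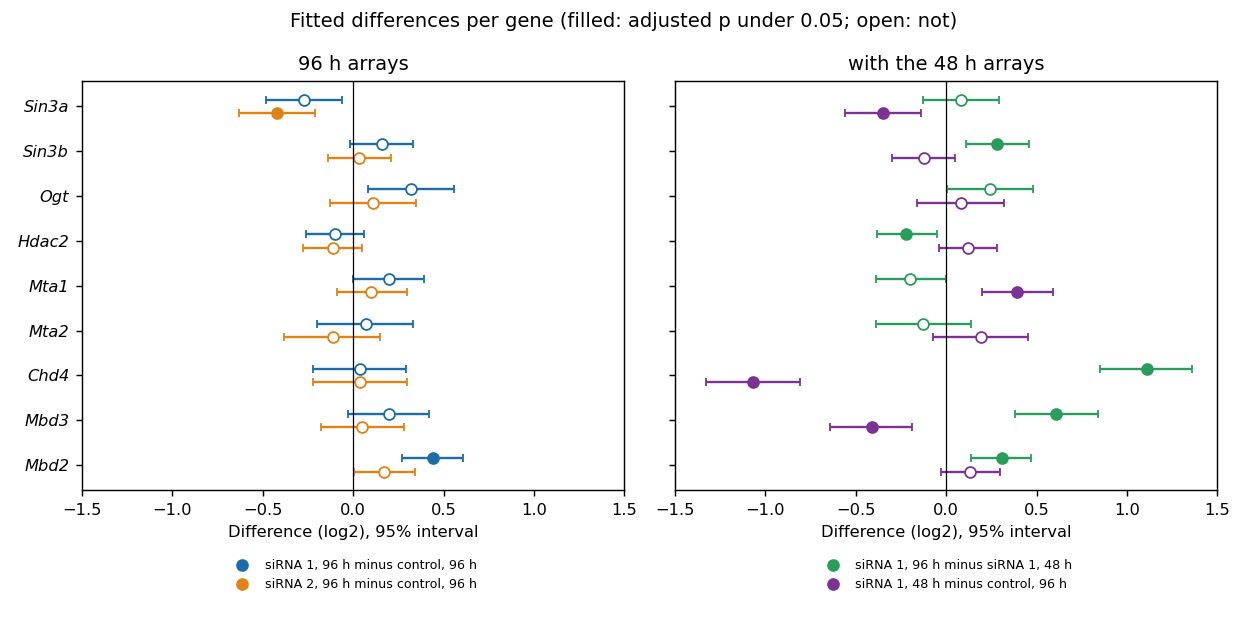
Fitted log2 differences (horizontal axis) with 95% intervals for the 9 genes, at left for each siRNA against control at 96 h and at right for the comparisons that use the 48 h arrays; filled points have an adjusted p under 0.05. At left only Mbd2 with siRNA 1 and Sin3a with siRNA 2 are filled, and at right Chd4 stands out at 1.11 and -1.07.

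The largest steps among the members were between time points. With siRNA 1, Chd4, Mbd3, Mbd2 and Sin3b were higher at 96 h than at 48 h and Hdac2 was lower. These 4 higher and 1 lower calls of 9 compare with 19.2% higher and 18.5% lower, 37.6% in all, among all genes. With the dim genes left out, 4577 of 7634 genes were called, and all 9 members lay above that limit. The median log2 difference was 0.244 for the members and -0.032 for all genes, the dim ones included. The arrays did not overlap for 8 of 9 members, against 70.3% of all genes. Time after transfection and the lung transcripts of the 96 h arrays cannot be told apart here: of the 16 lung genes, 11 were higher and 0 lower at 96 h.

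Chd4 had signals of 10.74 and 10.82 with siRNA 1 at 96 h, against 9.57 and 9.77 with siRNA 1 at 48 h. The 48 h arrays lay below all 6 arrays of 96 h, of which the lowest was a control at 10.61. The difference between the time points was 1.11 ± 0.112, or 2.15-fold (adjusted p = 2.3e-04), and it ranged from 1.01 to 1.21 when any single array was left out. Against the controls of 96 h, the 48 h arrays were lower by 2.10-fold, with a log2 difference of -1.07 ± 0.112 (adjusted p = 3.7e-04).

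Mbd3 had signals of 10.15 and 10.41 with siRNA 1 at 96 h, against 9.72 and 9.63 with siRNA 1 at 48 h. As with Chd4, the 48 h arrays were the lowest of the 8. The difference was 0.61 ± 0.0992, or 1.53-fold (adjusted p = 0.00213), and against the controls of 96 h the 48 h arrays had a difference of -0.41 ± 0.0992 (adjusted p = 0.0134). The call against the controls was lost without control replicate 1 (0.0562) or 48 h replicate 2 (0.0842).

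The 3′ minus 5′ signals of the arrays' own control probe sets for Actb and Gapdh overlapped between the 48 h and 96 h arrays. RNA integrity beyond these transcripts was not tested, nor was its part in the steps of Chd4 and Mbd3. The 3′ minus 5′ signal of Actb was 0.40 and 0.26 with siRNA 1 at 96 h, 0.50 and 0.43 with siRNA 2 at 96 h and 0.48 and 0.40 with siRNA 1 at 48 h, against 0.41 and 0.48 in the controls. That of Gapdh lay between -0.09 and 0.02 on all 8 arrays.

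With siRNA 1, Mbd2 was higher at 96 h than at 48 h by 0.31 ± 0.0725 (adjusted p = 0.0116) and Sin3b by 0.28 ± 0.0764 (0.0205), while Hdac2 had a difference of -0.22 ± 0.0708 (0.0416). The Hdac2 call was lost when any single array was left out (adjusted p from 0.0567 to 0.163), with the replicate block (0.0612) and with only the groups compared in the fit (0.0786). Sin3b lost its call without siRNA 1 replicate 2 of 96 h (0.117) or 48 h replicate 1 (0.0953) or 2 (0.0542). Mbd2 lost it without siRNA 1 replicate 2 of 96 h (0.0557) or 48 h replicate 2 (0.0659). The members called numbered 2 without siRNA 1 replicate 2 of 96 h or 48 h replicate 2, and 3 without 48 h replicate 1.

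Mta1 had signals of 9.82 and 9.83 with siRNA 1 at 48 h, the highest of any group, and Mta2 had 8.99 and 8.94. Between 96 h and 48 h with siRNA 1 the difference was -0.20 ± 0.0854 for Mta1 (adjusted p = 0.105), which passed with quantile normalization (0.0236), an intensity trend (0.043) or the dim genes left out (0.0434). It was -0.13 ± 0.114 for Mta2 (0.427), 0.24 ± 0.104 for Ogt (0.102, or 0.0399 with the dim genes left out) and 0.08 ± 0.0913 for Sin3a (0.522).

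The last comparison set siRNA 1 at 48 h against the controls of 96 h. There siRNA, time and lung transcripts differ together and cannot be told apart. Of the 16 lung genes, 13 were lower and 0 higher, and the 13 include Napsa and Hopx. Chd4, Mbd3 and Sin3a were lower and Mta1 was higher. This is 1 higher and 3 lower calls of 9, against 17.1% higher and 18.4% lower, 35.4% in all, among all genes. With the dim genes left out, 4511 of 7634 genes were called. The arrays did not overlap for 8 of 9 members, against 68.9% of all genes. The members' median was 0.080, against 0.003 for all genes. Sin3a had a difference of -0.35 ± 0.0913 (adjusted p = 0.0193), and Mta1 one of 0.39 ± 0.0854 (0.00872). The other members did not pass, with differences of 0.19 for Mta2 (0.23), 0.13 for Mbd2 (0.196), 0.12 for Hdac2 (0.231), -0.12 for Sin3b (0.245) and 0.08 for Ogt (0.586).

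Sin3a was thus lower than the controls with both siRNAs at 96 h and with siRNA 1 at 48 h, whereas Chd4 and Mbd3 were lower than the controls on the 48 h arrays and did not differ detectably from them at 96 h. The 48 h call of Sin3a was lost without control replicate 1 (0.0787), control replicate 2 (0.0579) or 48 h replicate 2 (0.12), and that of Mta1 without control replicate 1 (0.0536) or 48 h replicate 2 (0.0509). The members called then numbered 1 without control replicate 1 and 1 without 48 h replicate 2.

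Other genes of the same complexes were looked at as lists written from general knowledge, with earlier results of these data known. Among 16 other Sin3 complex genes, 2 rose and 6 fell with both siRNAs at 96 h, and 8 did not pass, against 24.2% called over all genes. All of the 16 but Phf12 lay above the median gene mean, and the fit without dim genes called 3393 of 7634. The median log2 difference of the 16 was -0.196, against -0.021 over all genes. Ing1, whose product reads a histone mark of active promoters, fell by 0.54 ± 0.0605 (adjusted p = 5.8e-04). Kdm5b, a histone demethylase gene, fell by 0.44 ± 0.0722, Arid4a by 0.36 ± 0.0599 and Sap30, a core subunit, by 0.30 ± 0.0609. Sap30 lost its call without control replicate 1 (0.061) or 2 (0.0579).

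Ing1, Arid4a and Kdm5b (-0.32, adjusted p = 0.0193) were also lower with siRNA 1 at 48 h than in the 96 h controls, and Sap30 was not called there (0.03, 0.779). Ing1 averaged 11.10 with siRNA 1 at 96 h, 11.15 with siRNA 2 at 96 h and 11.12 with siRNA 1 at 48 h, against 11.66 in the controls. In siRNA 1 at 48 h against control, 9 of the 16 fell and 1 rose, against 18.4% lower and 17.1% higher over all genes. There the fit without dim genes called 4511 of 7634, either direction counted. The median of the 16 was -0.302, against 0.003 over all genes. Arid4b averaged 7.52 with siRNA 1 at 96 h and 6.56 with siRNA 1 at 48 h, a difference of 0.97 ± 0.087 (adjusted p = 1.3e-04). Like Chd4 it was lowest on the 48 h arrays, and it was picked out here after its values were seen.

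Of 11 further NuRD genes, 3 rose and 5 fell with both siRNAs at 96 h (median -0.061), and 3 did not pass, against 24.2% called over all genes. All of the 11 but Chd5 lay above the median gene mean, and the fit without dim genes called 3393 of 7634. The lists share genes. Rbbp4, which rose, and Rbbp7, not called, also count among the Sin3 genes. Kdm1a, which fell, also counts among the deacetylase and corepressor genes below. Cdk2ap2 fell by 1.09 ± 0.116 (adjusted p = 4.4e-04), with means of 8.62 with siRNA 1 and 8.61 with siRNA 2 at 96 h, against 9.70 in the controls. Zmynd8, a chromatin reader gene, rose by 0.59 ± 0.0687, and Gatad2b, a core subunit that links the Mbd protein to Chd4, fell by 0.36 ± 0.0841. Sall1, a zinc finger factor that recruits NuRD, fell by 0.30 ± 0.0727. Gatad2b lost its call with the lung covariate (0.0564) or without control replicate 2 (0.106), and Sall1 without control replicate 1 (0.0627) or 2 (0.111).

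Around Ogt, 2 of 20 genes of O-GlcNAc cycling and known Ogt partners rose and 3 fell (median -0.017), and 15 did not pass; the 5 calls of 20 are near the 24.2% called over all genes. Oga, which removes the sugar that Ogt adds, rose by 0.51 ± 0.0753 (adjusted p = 0.00216). It averaged 9.98 with siRNA 1 at 96 h, 9.63 with siRNA 2 at 96 h and 9.82 with siRNA 1 at 48 h, against 9.30 in the controls. Gfpt2, an enzyme of the entry step to the pathway that makes the sugar donor, fell by 0.88 ± 0.0882 (adjusted p = 3.3e-04), with means of 8.71 with siRNA 1 at 96 h, 9.30 with siRNA 2 at 96 h and 9.93 with siRNA 1 at 48 h, against 9.89 in the controls.

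Trak1, an adaptor of mitochondrial transport that Ogt modifies, fell by 0.46 ± 0.0793, and Uap1l1 fell by 0.43 ± 0.113. Uap1l1 lost its call without control replicate 2 (0.171), siRNA 1 replicate 1 (0.0544) or siRNA 2 replicate 1 (0.0617). Between 96 h and 48 h with siRNA 1, 2 of the 20 rose and 5 fell, near the 37.6% called over all genes. Those that rose were Asxl1 and Asxl2, and those that fell were Gfpt2, Gnpnat1, Pgm3, Uap1 and Trak1.

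Of 6 other methyl-CpG binding genes, 1 fell with both siRNAs at 96 h, Zbtb38, by 0.62 ± 0.143 (adjusted p = 0.0163), 0 rose (median -0.078), and 5 did not pass, against 24.2% called over all genes. Zbtb38 was dim, with means of 4.93 with siRNA 1 and 4.71 with siRNA 2 at 96 h, against 5.44 in the controls, and it lost its call without control replicate 2 (a difference of -0.35, adjusted p = 0.0936).

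Among 19 other deacetylase and corepressor genes, including the CoREST complex, 2 rose and 7 fell (median -0.156), and 10 did not pass. Over all genes 24.2% were called, and the fit without dim genes called 3393 of 7634. Gps2, a corepressor subunit gene, fell by 0.63 ± 0.0677 (adjusted p = 4.7e-04) and Rcor3 rose by 0.59 ± 0.0817. Rcor2, a CoREST gene of ES and neural cells, fell by 0.39 ± 0.0625 and Hdac6, a cytoplasmic deacetylase gene, by 0.37 ± 0.0631.

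**Figure D3:**
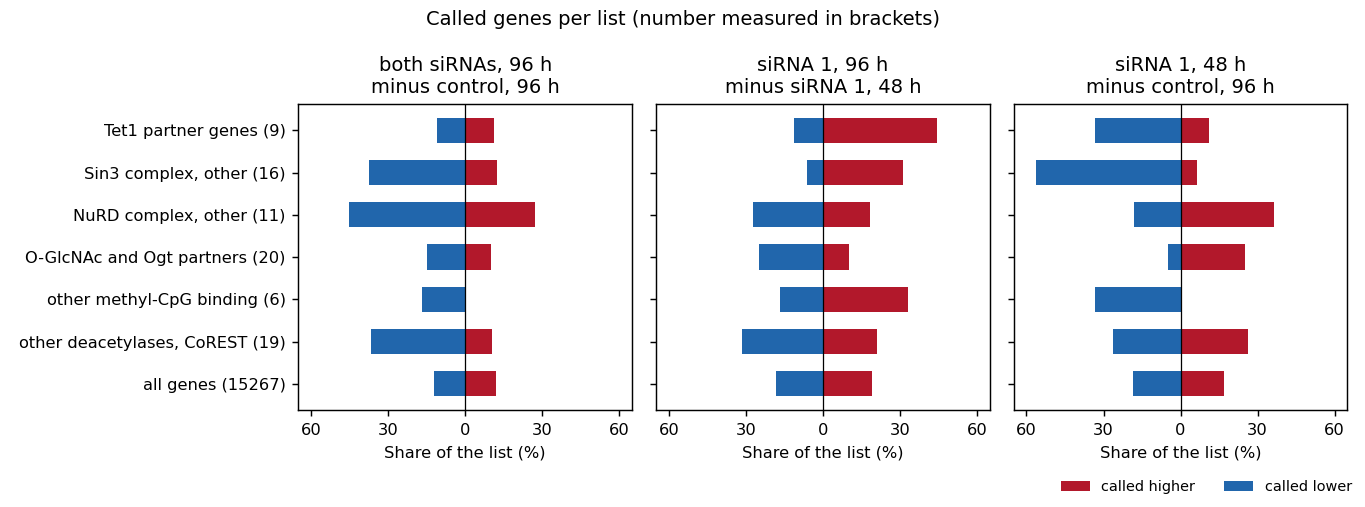
Share of each gene list called higher (right of 0) or lower (left of 0) at an adjusted p under 0.05 in 3 comparisons, with all 15267 genes at the bottom. With both siRNAs at 96 h the 9 partner genes gave 1 call each way, whereas the other Sin3 genes gave 6 falls and 2 rises of 16. The bars of all genes include dim genes, whereas nearly all partner, Sin3 and NuRD genes lay above the median gene mean.

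The profiles most like those of 3 members were sought over the 8 arrays by Pearson's r, among 4410 genes whose group means span at least 0.5 log2 (4409 beside Chd4, itself such a gene). Chd4 was most like Bptf, a chromatin remodeller gene (r = 0.990), Cnot4 (0.988) and Mosmo (0.987). Ogt was most like Arf1 (0.947), Apaf1 (0.946) and Rhd (0.931), and Sin3a most like S100a13 (0.975), Ndc80 (0.930) and Cdx1 (0.927). These values describe 8 arrays of 4 groups, which share the step between groups, and carry no test.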

How the data were processed

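Per the labels' protocols, total RNA was labelled with biotin by in vitro transcription and hybridised to Affymetrix arrays. The authors deposited log2 expression values made with RMA, per the submitters' processing notes, which name no version. Values ran from 2.60 to 15.3, with array medians of 6.68 to 6.72, which fits a log2 scale. RMA brings arrays to one distribution, which hides a change in total RNA. Of 16556 probe sets, 64 controls and 1222 not in the probe annotation were left out, and for 3 genes with several probe sets the brightest was used, leaving 15267 genes; 0 columns belonged to other samples.

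With limma 3.58.1 in R 4.3.3, 1 mean per group was fitted over the 8 arrays (4 residual and 4.13 prior degrees of freedom; no replicate block) and tested on simulated data. The two-sided limma p-values were adjusted by Benjamini-Hochberg over 15267 genes within each of 6 comparisons, and adjusted p under 0.05 made a call. Values after ± are standard errors unless an SD is named; intervals are 95% and unadjusted. The alternatives were quantile normalization, an intensity trend, a robust prior, dim genes (below the median gene mean of 6.79) left out, all non-control probe sets, a replicate block, only the groups compared, the 48 h arrays left out, the mean of 16 lung genes as a covariate, and each array left out in turn. The number of arrays limits the precision.

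Every measured member has its values in each comparison. Of each related list, up to 4 called genes with the smallest adjusted p with both siRNAs are named; genes named in other comparisons were chosen after their values were seen. Likeness was computed for Ogt, Sin3a and the member with the widest range of group means. The members and lists were chosen with earlier results of these data known.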

Additional observations from a re-analysis of the deposited data

Results flagged for a closer look

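With siRNA 1, the difference from the 96 h controls was called unequal over time for 5 of 9 members, against 37.6% of all genes. That test is of the 96 h against the 48 h arrays, since the 1 set of controls cancels (limma, adjusted p under 0.05). With the dim genes left out, it called 4577 of 7634 genes, and all 9 members lay above that limit. The log2 difference of 96 h minus 48 h was 1.11 for Chd4, 0.61 for Mbd3, 0.31 for Mbd2, 0.28 for Sin3b and -0.22 for Hdac2. In Sin3b and Hdac2 the arrays of the 2 times lay on opposite sides of the controls, with means of 10.90 at 96 h and 10.62 at 48 h around 10.74 in the controls for Sin3b, and of 11.73 and 11.95 around 11.83 for Hdac2. Neither gene was called against the controls at either time (limma, adjusted p = 0.179 and 0.245 for Sin3b, 0.363 and 0.231 for Hdac2). The calls of Mbd2, Sin3b and Hdac2 between the times were lost without certain single arrays, as given above. The controls are from 96 h alone, and the lung transcripts of the 96 h arrays move with the difference between the times. Their part in it was not tested.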

How the results depend on the processing

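Over 54 differences (9 members in 6 comparisons), the alternatives gave 873 values, of which 813 kept direction and side of the threshold, 29 lost a call, 10 gained one and 21 changed sign. The number of members called with both siRNAs was 2, or 3 without dim genes (Ogt added), and 0 to 2 with 1 array left out. With siRNA 1 at 96 h it was 1, or 2 with quantile normalization and 3 with an intensity trend or without dim genes, and 1 whichever array was left out. Leaving out an array gave 0 to 1 calls with siRNA 2. It gave 2 to 4 between 96 h and 48 h (5 with all arrays) and 1 to 4 for 48 h against control (4 with all arrays). Between 96 h and 48 h, Mta1 was added with quantile normalization, an intensity trend or without dim genes, and Ogt without dim genes. A smaller number of arrays leaves fewer degrees of freedom, and the cause of the other shifts was not tested. Without dim genes, 3393 of 7634 genes were called with both siRNAs and 3304 of 7634 with siRNA 1 at 96 h.

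All values that changed sign were small and uncalled. With the lung covariate they were Mta2 with both siRNAs (0.05), Mbd3 with siRNA 2 (-0.0059) and Chd4 between the siRNAs (0.0032), and with quantile normalization Hdac2 between the siRNAs (-0.01) and Sin3a between 96 h and 48 h (-0.03). With 1 array left out, the ranges that crossed 0 were, for Chd4, -0.09 to 0.17 with both siRNAs, siRNA 1 or siRNA 2 and -0.07 to 0.06 between the siRNAs. For Mta2 they were -0.10 to 0.05 with both, -0.03 to 0.16 with siRNA 1 and -0.27 to 0.04 with siRNA 2. The others were Sin3b with siRNA 2 (-0.0038 to 0.07), Hdac2 between the siRNAs (-0.0052 to 0.03), Sin3a between 96 h and 48 h (-0.02 to 0.18) and Ogt at 48 h against control (-0.007 to 0.17).

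Over all genes, the calls between the siRNAs numbered 3, or 124 with an intensity trend, 172 without dim genes, 2 with the replicate block, 0 with only the groups compared or without the 48 h arrays, and 0 to 3 with 1 array left out. With siRNA 2 they numbered 2392, or 1364 with only the groups compared and as few as 1160 with 1 array left out. With 1 array left out they fell as low as 2218 of 3700 with both siRNAs, 1906 of 3487 with siRNA 1, 3664 of 5748 between 96 h and 48 h and 3212 of 5410 for 48 h against control.

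Deviations of same-numbered arrays correlated at 0.140 between siRNA 1 and siRNA 2 at 96 h. In the other pairs of groups the correlation lay between -0.056 and -0.018. Whether same-numbered arrays share a culture or day is not stated and was not tested. With the replicate block the members called were 2 with both siRNAs, 1 with each siRNA, 0 between the siRNAs, 4 between 96 h and 48 h (Hdac2 lost) and 4 at 48 h. For the 17 related genes named with both siRNAs, 260 of 270 alternative values kept their call, 10 lost it and 0 changed sign; Zbtb38 and Gps2 lay below the limit of the fit without dim genes and have no value there. For both siRNAs, the fit with only the groups compared is the one without the 48 h arrays.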
